A study of Homo sapiens with 46 samples.

Results

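RNA sequencing was used to ask how the transcripts of HEK293T cells, a line derived from human embryonic kidney, differed after the mitochondrial mRNA for ATP8 was targeted. The comparison consisted of all 4 ATP8 libraries and all 4 control libraries, 8 of the 46 libraries of the series, and each of the 20272 genes that passed a filter on low counts was compared between them. The cells of both groups had a WT genotype and were harvested at 48 h. ATP8 cells had received 2 µM of a chimera, a morpholino oligonucleotide joined by click chemistry to pCox4, the mitochondrial targeting peptide of a yeast cytochrome c oxidase subunit, with Endo-Porter as the delivery agent. For the control the morpholino was left out, and the cells were given the pCox4 peptide carried through the same click reaction buffer. An effect of the ATP8 sequence and an effect that any chimera would have therefore cannot be told apart in the comparison with the control alone, and the same libraries were also set against the 4 ATP6 libraries and against the mean of the other 10 chimera treatments. The work was done in 2 rounds, each with its own day and lot of reagents, and a round is called a batch here. Batch 1 gave the replicates numbered 1 and 2, and batch 2 those numbered 3 and 4. All cells came from one line, and the protein made from the targeted mRNA was not measured in these files.

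The mitochondrial DNA (mtDNA) encodes 13 subunits of the oxidative phosphorylation complexes together with the rRNAs and tRNAs of the mitochondrial ribosome. ATP8 and ATP6 are both membrane-embedded subunits of complex V, the ATP synthase, in which protons flowing back into the matrix drive the formation of ATP. They are translated from a single bicistronic mRNA on which the reading frames overlap. A morpholino bound near a start codon hinders translation of the frame without being a substrate for RNase H, so the abundance of the RNA need not follow that of the protein.

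The MT-ATP8 frame spans MT:8366-8572 on the heavy-strand transcript (plus strand, GRCh38, GENCODE 29), a single exon of 207 bases, and the last 46 of these are also the first bases of the MT-ATP6 frame at MT:8527-9207. The sequences below are shown because they fix where the ATP8 and ATP6 chimeras differ. The first line gives the start of the MT-ATP8 frame with the 23 bases of the target site in capitals (MT:8371-8393, bases 6 to 28 of the frame, counted from the A of its start codon). The second line is its reverse complement, which equals the base sequence of the morpholino. The third line is the site of the ATP6 chimera as named by its positions (MT:8517-8541), with the start codon of MT-ATP6 in capitals. The base sequence listed for the ATP6 morpholino in the study's supplement does not equal the reverse complement of this site. The third line therefore rests on the name alone.
MT-ATP8 start and target site: atgccCCAACTAAATACTACCGTATGGC
ATP8 morpholino bases: gccatacggtagtatttagttgg
MT-ATP6 target site: gagaaccaaaATGaacgaaaatctg
The ATP8 site ended 133 bases before the MT-ATP6 frame starts, so both chimeras addressed the same RNA at separate places.

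Total counts ranged from 21175789 to 25781350 in the ATP8 libraries and from 19944731 to 22664329 in the controls, against 18876395 to 100698084 over all 46 libraries. Reads of the mtDNA genes made up 4.58% ± 0.186 (SD, n = 4) of the counts after ATP8 silencing and 4.56% ± 0.414 (SD, n = 4) in the control. Of 10 genes known from HEK293T cells, 9 were at 1 CPM (counts per 1e6 counts) or more in all 8 libraries, and their summed level was 1328 to 1594 CPM in ATP8 and 1288 to 1521 CPM in control libraries. Of 16 markers of other cell types, 14 stayed under 1 CPM in all 8, with summed levels of 6.75 to 8.2 CPM in ATP8 and 6.78 to 8.25 CPM in control libraries.

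Counts over the MT-ATP8 frame of the targeted RNA did not differ detectably. MT-ATP8 stood at 108, 94.5, 101 and 155 CPM in ATP8 replicates 1 to 4 and at 84.4, 111, 90.6 and 131 CPM in control replicates 1 to 4. The groups overlapped: in batch 1 both ATP8 libraries lay between the controls, and in batch 2 one lay between them and the other above. The log2 fold change was 0.13 (SE 0.17, 95% interval -0.22 to 0.47, adjusted p = 0.855 by edgeR's quasi-likelihood test). Without ATP8 replicate 4 the value was -0.01. How reads in the 46 bases shared with MT-ATP6 were counted is not given in the sources used here. Per kilobase, control libraries held 504 ± 103 CPM for MT-ATP8 and 4528 ± 497 CPM for MT-ATP6 (SD, n = 4), although both frames lie on the same RNA. The MT-ATP8 counts are therefore a poor measure of how much of that RNA was present. The cause of this gap was not tested.

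MT-ATP6, the second frame of the same RNA, was measured at 2284, 2516, 2728 and 2901 CPM in ATP8 libraries and at 2792, 2866, 3138 and 3539.7 CPM in controls. Each ATP8 library was at 80.7% to 88.9% of the mean control of its own batch, while the ranges of the pooled groups overlapped because batch 2 was higher in both. The log2 fold change of -0.24 (SE 0.055, 95% interval -0.35 to -0.13) missed the threshold in the comparison across all genes (adjusted p = 0.0649, edgeR). With the replicate number as a block in place of the batch the adjusted p was 0.0209, and over the 21 alternative fits it ranged from 1.49e-06 to 0.799 and was under 0.05 in 8. Leaving out control replicate 3 brought it to 0.0371, and leaving out control replicate 4 to 0.342. Relative to its neighbours on the transcript, the ratio of MT-ATP6 to MT-CO2, in counts per kilobase, was 0.554 ± 0.044 (SD, n = 4) after ATP8 silencing and 0.658 ± 0.0361 (SD, n = 4) in the control, with no overlap (two-sided exact permutation p = 0.0286, the smallest that 70 splits allow). This permutation and those below ignored the batch. Splits kept within batches would be fewer, and their smallest possible p larger. The ratio to MT-CO3 was 0.595 ± 0.0465 against 0.671 ± 0.0467 (exact permutation p = 0.114, n = 4 each), and the ratio of MT-ATP8 to MT-ATP6 was 0.144 ± 0.0261 against 0.111 ± 0.0163 (exact permutation p = 0.143, n = 4 each). A nuclear copy of the region on chromosome 1, MTATP6P1, near-identical to MT-ATP6 and able to take its reads, stood at 168 ± 38.2 CPM after ATP8 silencing and at 206 ± 19.9 CPM in the control (log2 fold change -0.31, edgeR adjusted p = 0.48).

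The mitochondrial rRNAs are the RNA cores of the small (MT-RNR1) and large (MT-RNR2) subunit of the mitochondrial ribosome. MT-RNR1 had the lowest p of all genes tested, and MT-RNR2 ranked 8 by p. MT-RNR1 (MT:648-1601) was at 1167, 1276, 923 and 1041 CPM in ATP8 replicates 1 to 4 and at 658, 664, 680.0 and 607 CPM in control replicates 1 to 4. Every ATP8 library exceeded every control library, at 144% to 193% of the control of its batch. The rise was 1.68-fold (log2 fold change 0.75, SE 0.063, adjusted p = 3.1e-12, edgeR), and it kept an adjusted p under 0.05 in all 21 alternative fits, with log2 values from 0.61 to 0.88. Batch 1 alone gave 0.88 and batch 2 alone 0.61, a difference of -0.27 (SE 0.12) that no test across all genes called (edgeR adjusted p = 0.697). MT-RNR2 (MT:1671-3229) was at 4667, 4843, 4137 and 4717 CPM in ATP8 and at 3503, 3503, 4096 and 3726 CPM in control libraries, so the lowest ATP8 library stood just above the highest control. It rose 1.24-fold (log2 fold change 0.31, SE 0.063, adjusted p = 0.0188, edgeR), by 0.44 in batch 1 alone and by 0.18 in batch 2 alone. The MT-RNR2 call was kept without ATP8 replicate 3 or without control replicate 3 and was lost without any one of the other 6 libraries, with adjusted p up to 0.172 without ATP8 replicate 2. It was also lost with a gene length trend removed (adjusted p = 0.133), without a batch term and in batch 2 alone (edgeR adjusted p = 0.553).

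The rRNAs did not rise in proportion. The ratio of MT-RNR1 to MT-RNR2, per kilobase, was 0.408, 0.43, 0.365 and 0.361 in ATP8 replicates 1 to 4 and 0.307, 0.31, 0.271 and 0.266 in control replicates 1 to 4. The groups did not overlap, with means of 0.391 ± 0.034 and 0.289 ± 0.023 (SD, n = 4 each, exact permutation p = 0.0286, the smallest possible with the batch ignored). A higher ratio was not particular to ATP8. In replicates 1 to 4 it was 0.368, 0.397, 0.322 and 0.324 with the ATP6 chimera. ND1 gave 0.414, 0.44, 0.325 and 0.323, and ND4L 0.342, 0.361, 0.305 and 0.307. With COX1 it was 0.295, 0.288, 0.27 and 0.24, below the controls. Both rRNAs together took 0.562% ± 0.0393 of the counts after ATP8 silencing and 0.44% ± 0.0321 in the control (exact permutation p = 0.0286, n = 4 each). The libraries were enriched for poly(A) tails, and mitochondrial rRNAs carry short ones, so these values describe the captured fraction. Of 36 tested replication-dependent histone genes, whose mRNAs lack a poly(A) tail, 9 had a positive log2 fold change, none was called, and the median was -0.19, with summed levels of 67.1 to 123 CPM in ATP8 and 79 to 127 CPM in control libraries. RN7SL2, an RNA of the signal recognition particle without a long tail, was at 45.6 ± 18.3 CPM in ATP8 and 70.3 ± 47.9 CPM in control (log2 fold change -0.69, edgeR adjusted p = 0.658).

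**Figure D1:**
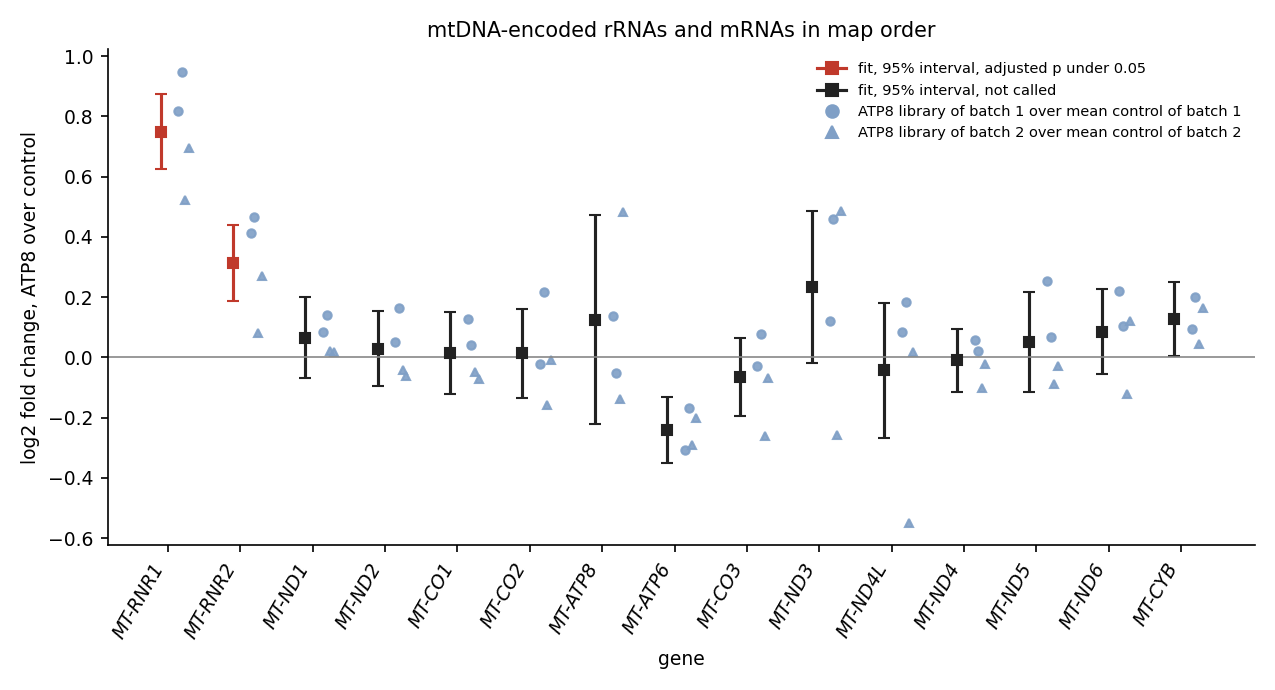
Log2 fold change between ATP8 and control libraries for the 13 mtDNA-encoded mRNAs and both rRNAs in the order of the map. Squares with bars are the fitted value and its 95% interval, circles and triangles the single ATP8 libraries of batch 1 and batch 2 over the mean control of their batch. MT-RNR1 at 0.75 and MT-RNR2 at 0.31 are the called genes, and all 4 libraries of MT-ATP6 lie below 0.

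The other 11 mtDNA-encoded mRNAs had log2 fold changes between -0.07 for MT-CO3 and 0.23 for MT-ND3, with a smallest edgeR adjusted p of 0.463 for MT-CYB. MT-CO2, which lies before MT-ATP8 on the transcript and encodes a core subunit of complex IV, stood at 4269 to 5054 CPM in ATP8 and 4163 to 5176 CPM in control libraries (log2 fold change 0.01, SE 0.073). MT-CO3, the next frame after MT-ATP6, stood at 4762 to 5481 and 4633 to 5756 CPM (log2 fold change -0.07, SE 0.064). MT-ND3 and MT-ND4L, which encode subunits of complex I, differed between ATP8 libraries: replicate 3 was at 83.6% and 68.4% of its batch control for these mRNAs, whereas replicate 4 was at 140% and 101%. MT-TK, the lysine tRNA whose gene directly precedes MT-ATP8, was near 1 CPM in all 8 libraries (log2 fold change 0.23, SE 0.27). Of 19 mtDNA tRNAs tested, 15 were higher and 5 had an unadjusted p under 0.05, all of them higher, with a median log2 fold change of 0.25, but 8 of them averaged under 1 CPM and none was called. The tRNA with the lowest p, MT-TP, which was named after its value was seen, stood at 36.3, 50.9, 24.5 and 33.3 CPM in ATP8 and at 27.1, 26.9, 30.6 and 25 CPM in control libraries (log2 fold change 0.40, SE 0.11, edgeR adjusted p = 0.159).

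MT-RNR1 was higher in ATP8 than in any other condition on average. Its mean was 1102 ± 153 CPM, followed by 937 ± 82.3 CPM with the ATP6 chimera, 877 ± 87.2 CPM with COX2 (n = 3) and 818 ± 27.4 CPM with COX3, all called against the same control libraries. The remaining 7 treatments had means from 541 to 770 CPM and were not called. The single libraries of the 10 other treatments reached from 515 to 1028 CPM (median 731, 38 libraries), so ATP8 replicate 3 at 923 CPM lay within their range and the other ATP8 libraries above it. MT-RNR2 after ATP8 silencing (4591 ± 312 CPM) ranked behind COX2 (4772 ± 454 CPM) and close to COX1 and COX3, which did not differ from it beyond the spread of the libraries. MT-ATP6 after ATP8 silencing (2607 ± 267 CPM) ranked above COX3 (2459 ± 335 CPM) and below ATP6 (2685 ± 300 CPM), and these neighbours overlapped. MT-ATP8 ranged from 76.7 ± 12.3 CPM with COX3 to 132 ± 7.89 CPM with ND4L and was called in none of the 11 treatments.

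**Figure D2:**
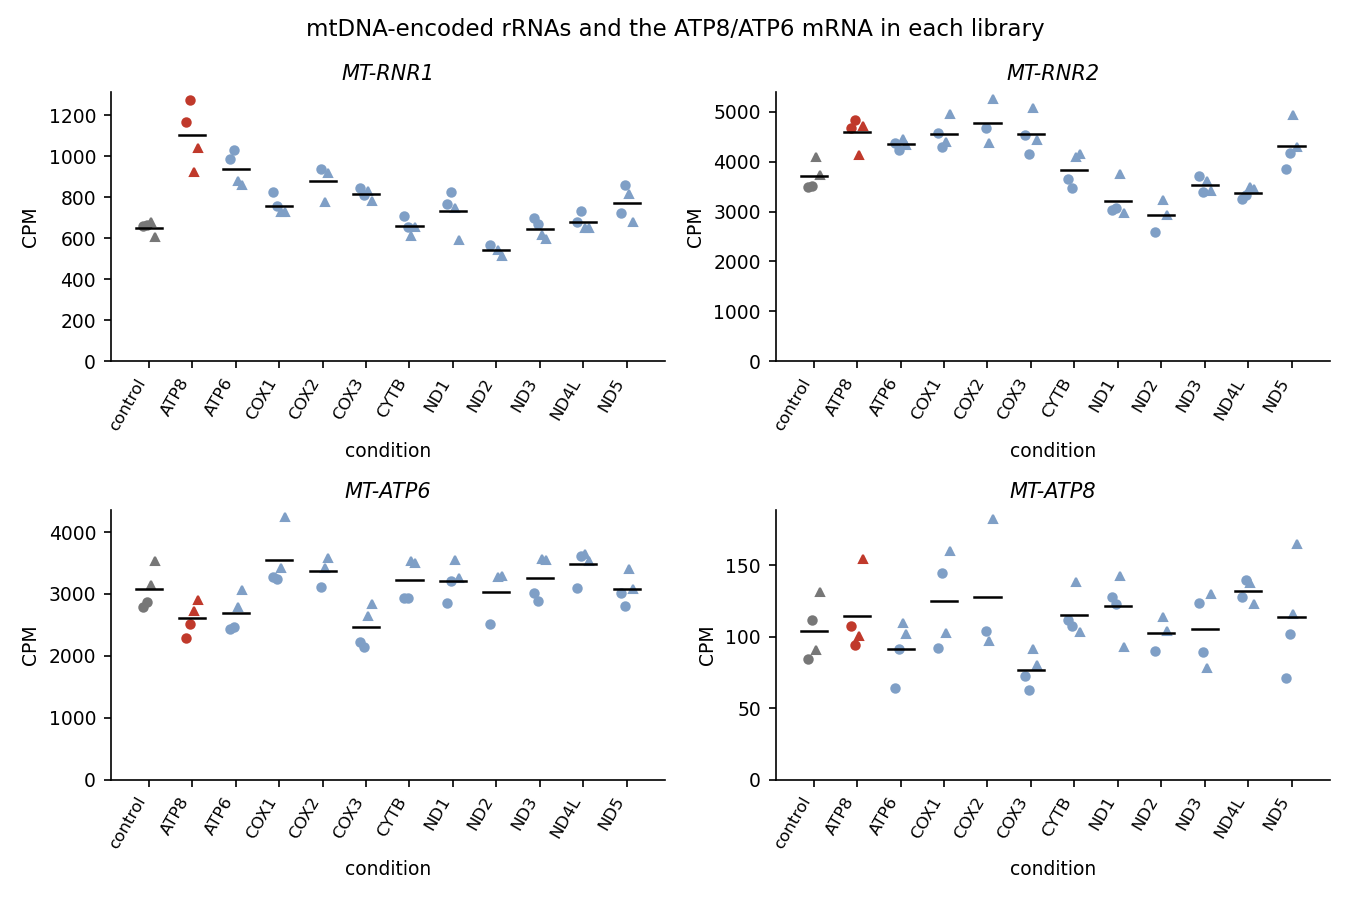
CPM of MT-RNR1, MT-RNR2, MT-ATP6 and MT-ATP8 in each library of the 12 conditions. Circles are batch 1, triangles batch 2 and lines the means, with ATP8 in red and control in grey. For MT-RNR1 the ATP8 mean of 1102 CPM is the highest of the 12 and the control mean is 652 CPM.

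Few transcripts passed the test across all genes. Of 20272 genes, 13 were called at an adjusted p under 0.05 (0.0641% of those tested), 9 higher (0.0444%) and 4 lower (0.0197%), and the absolute log2 fold changes of the called genes ran from 0.22 to 0.75. An unadjusted p under 0.05 was reached by 1259 higher (6.21%) and 814 lower (4.02%) genes. The CPM ranges of both groups were apart with ATP8 higher for 352 genes (1.74%) and with ATP8 lower for 312 (1.54%). The median log2 fold change over all tested genes was 0.002, and 10255 of them (50.6%) had a positive value. These shares are the background for the counts of every gene list. The members of a list were measured in the same libraries, so such counts are not independent observations. With the replicate number as a block 36 genes were called, 24 of them higher, including the same 13, and DESeq2 with the batch called 74. Leaving out single libraries gave 4 to 16 calls, with 4 each without control replicate 1 and control replicate 4, 5 without ATP8 replicate 2, 6 without ATP8 replicate 1, 7 without control replicate 2 and 8 without ATP8 replicate 4.

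Of the 4 transcripts that fell, ARRDC4 and TXNIP encode related alpha-arrestins that restrain glucose uptake and are known targets of the glucose-sensing transcription factors MondoA and ChREBP. ARRDC4 was at 46.4, 47.9, 50.1 and 48.5 CPM in ATP8 and at 59.2, 62.8, 65 and 68.7 CPM in control libraries. The groups were apart, with ATP8 at 72.5% to 78.5% of the control of its batch (log2 fold change -0.41, SE 0.063, adjusted p = 0.000471, edgeR). TXNIP was at 23.1, 25.3, 30.9 and 33.9 CPM in ATP8 and at 35.1, 33.1, 46.2 and 41.9 CPM in control libraries. ATP8 replicate 4 of the higher batch 2 reached past control replicate 2 of batch 1, but within each batch the groups were apart at 67.8% to 77.1% of the control (log2 fold change -0.47, SE 0.077, adjusted p = 0.00113, edgeR). Both calls were kept in all 8 fits that left out a library, with adjusted p up to 0.00436 for ARRDC4 and 0.0169 for TXNIP. PPP1R3E, a glycogen-targeting subunit of protein phosphatase 1, was at 12 to 13.1 CPM in ATP8 and at 16 to 17.4 CPM in control libraries, with no overlap (log2 fold change -0.39, SE 0.076, adjusted p = 0.0135, edgeR). Its adjusted p was 0.0712 without ATP8 replicate 1, 0.0518 without control replicate 1 and 0.0902 without control replicate 2. ZNF75A, a zinc finger protein, was at 17.7 to 24.5 CPM against 24.8 to 28.5 CPM (log2 fold change -0.35, SE 0.075, adjusted p = 0.0372, edgeR). It was called without ATP8 replicate 4 or control replicate 3 and missed the threshold without any other single library, at up to 0.172 without ATP8 replicate 2.

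Beside the rRNAs, 7 transcripts rose, by 1.17- to 1.27-fold. CD63, a tetraspanin of late endosomes and exosomes, was at 239, 243, 239 and 230.4 CPM in ATP8 and at 198, 214, 174 and 166 CPM in control libraries (log2 fold change 0.34, SE 0.064, adjusted p = 0.00929, edgeR). The ATP8 libraries were nearly level, and the controls were higher in batch 1 than in batch 2. The log2 fold change was 0.22 in batch 1 alone and 0.46 in batch 2 alone, and the adjusted p was 0.167 without control replicate 4. OCIAD2, a protein of mitochondria and endosomes, was at 52.4 to 68.1 CPM against 41.3 to 53.6 CPM, and LINC02001, a long non-coding RNA, at 30 to 39.6 CPM against 22.8 to 30.5 CPM, with ranges that overlapped between batches (log2 fold changes 0.34 and 0.33, edgeR adjusted p 0.0372 and 0.0129). TMSB4X, the actin-monomer binding thymosin beta-4, was at 367, 435, 283 and 288 CPM against 306, 325, 262 and 230.3 CPM (log2 fold change 0.28, SE 0.062, adjusted p = 0.0496, edgeR). Its gene has processed copies in the genome that could share its reads, and its call was also lost with RLE size factors (adjusted p = 0.0549), with a stricter filter (0.0657) and with the gene length trend removed (0.114).

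EMC4, MRPL24 and YARS rose with groups that did not overlap. EMC4, a subunit of the endoplasmic reticulum membrane protein complex that inserts transmembrane segments, was at 68, 73.5, 68.2 and 67 CPM in ATP8 and at 57, 56.1, 56.9 and 58.6 CPM in control libraries (log2 fold change 0.27, SE 0.057, adjusted p = 0.0267, edgeR). MRPL24, a protein of the large mitochondrial ribosomal subunit, was at 78.5, 77.6, 81.1 and 82.5 CPM against 66.1, 64, 64.2 and 65.2 CPM (log2 fold change 0.30, SE 0.063, adjusted p = 0.0302, edgeR). YARS, the cytosolic tyrosyl-tRNA synthetase, was at 176, 174, 172 and 177 CPM against 146, 145, 158 and 150.5 CPM (log2 fold change 0.22, SE 0.045, adjusted p = 0.0188, edgeR). These later calls depended on the full set of libraries. The MRPL24 call was lost whichever of the 8 libraries was left out (adjusted p 0.0583 to 0.188). EMC4 kept its call without ATP8 replicate 1 or control replicate 3, YARS without ATP8 replicate 3 or control replicate 3, OCIAD2 without ATP8 replicate 3 or control replicate 2 and TMSB4X without control replicate 3, and each lost it without any other library (adjusted p up to 0.147, 0.121, 0.317 and 0.342). LINC02001 lost its call without ATP8 replicate 2 (0.123), control replicate 1 (0.057) or control replicate 4 (0.167).

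**Figure D3:**
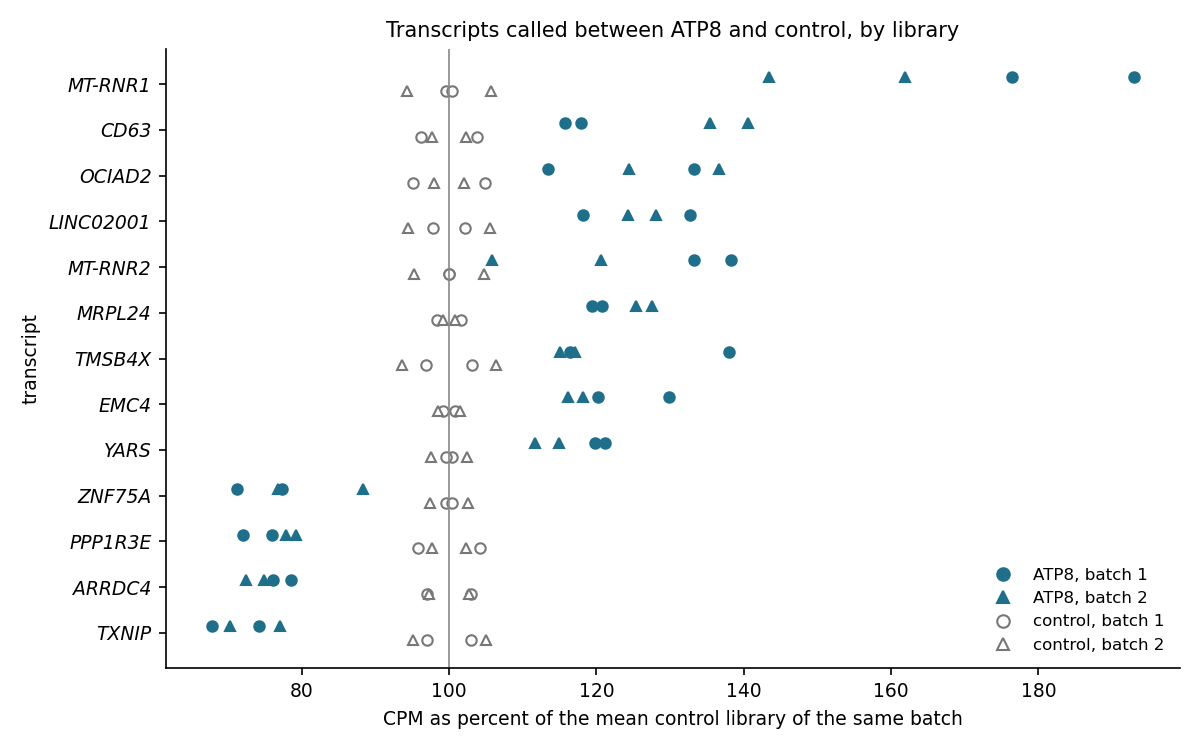
The 13 transcripts called between ATP8 and control, each library as a percent of the mean control library of its batch. Filled symbols are ATP8, open symbols control, circles batch 1 and triangles batch 2. MT-RNR1 reaches 193% and TXNIP 67.8%, and within a batch all ATP8 libraries lie on one side of the controls.

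The values of the called transcripts in the other treatments, which share the control libraries, were as follows. TXNIP was called lower in all 11 treatments (log2 fold changes -0.78 to -0.42), and ARRDC4 in 8 of 11 (-0.55 to -0.26 over all). CD63 was called higher in 8, OCIAD2 in 5 and LINC02001 in 4, with 0.18 to 0.39, 0.14 to 0.34 and 0.17 to 0.36 over the 11 treatments. PPP1R3E was also called with COX3, YARS and TMSB4X with COX2, MRPL24 and ZNF75A with CYTB, and EMC4 with ATP8 alone, where its values in the others were 0.10 to 0.23. None of these 11 nuclear transcripts differed between ATP8 and the mean of the other 10 treatments (smallest edgeR adjusted p 0.971), and the largest such differences were -0.15 for PPP1R3E and 0.11 for YARS on the log2 scale.

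The next 17 protein-coding genes by p, which fill the named genes up to 30, had adjusted p from 0.0649 to 0.107 in edgeR, 11 of them higher and 6 lower, and none passed the test. Genes with positive values included LDHA, the lactate dehydrogenase subunit that converts pyruvate to lactate (758 to 918 CPM against 667 to 766 CPM, log2 fold change 0.19), GSS, the glutathione synthetase (0.22), TIMM10, a chaperone of the mitochondrial intermembrane space (32.9 to 40.3 CPM against 24.2 to 29.8 CPM, 0.38), STC2, a secreted glycoprotein hormone (0.25), and SARS, the cytosolic seryl-tRNA synthetase (0.18). PROCR, EML2, ANXA1, WDR74, PPIB and RRP1 had positive values from 0.23 to 0.45. The negative values belonged to RALGPS1 (-0.37), RSRP1 (-0.34), the splicing kinase CLK4 (-0.38), MAST3 (-0.45) and, at a few CPM, TBX19 (-0.97) and TCTE1 (-0.84).

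Of the 17 nuclear-encoded subunits of complex V, the partners of ATP8 and ATP6, none was called, 15 had a positive log2 fold change and 5 an unadjusted p under 0.05, all higher (against 6.21% of all genes). The median was 0.12, against 0.002 for all genes tested. ATP5MG, subunit g of the membrane sector, was at 37.4, 45.3, 34.7 and 35.9 CPM in ATP8 and at 32, 36, 30.6 and 29.2 CPM in control libraries (log2 fold change 0.26, SE 0.089, edgeR adjusted p = 0.246). ATP5ME, subunit e, was at 15, 20.4, 15.5 and 19.4 CPM against 13.9, 14.3, 14.4 and 12.2 CPM (0.36, SE 0.15) and was the sole subunit whose groups were apart. ATP5F1B, the catalytic beta subunit, was at 1293 ± 119 CPM against 1199 ± 84.6 CPM (0.11, SE 0.042), and ATP5MC3, one of the genes for the c-ring, at 284 ± 27.1 CPM against 254 ± 23.8 CPM (0.16, SE 0.065). ATP5MC2, another c-ring gene, and ATP5PO, a subunit of the peripheral stalk, had values of -0.03 and -0.02. ATP8 replicate 2 was the highest library, relative to its batch control, for 12 of the 17 subunits. The medians of replicates 1 to 4 were 0.01, 0.26, 0.04 and 0.14, and without ATP8 replicate 2 the fitted median was 0.06 with 0 of 17 at an unadjusted p under 0.05. That count was 3 without control replicate 4, 8 without ATP8 replicate 3 and 10 without ATP8 replicate 1. With the gene length trend removed the median was 0.095.

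**Figure D4:**
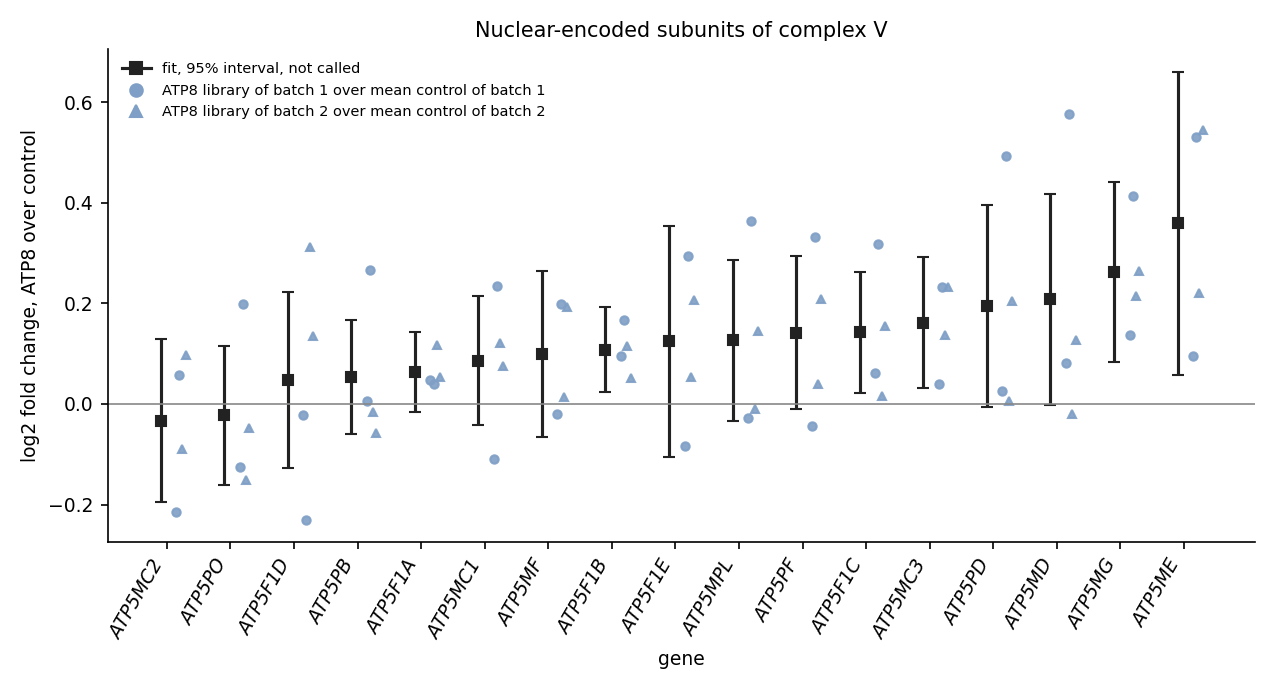
Log2 fold change between ATP8 and control libraries for the 17 nuclear-encoded subunits of complex V, ordered by value. Squares with bars are the fit with its 95% interval, circles and triangles single ATP8 libraries over the mean control of batch 1 and batch 2. No subunit is called, and the values run from -0.03 for ATP5MC2 to 0.36 for ATP5ME.

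No factor around complex V was called either. Of 11 assembly factors and regulators, 9 were higher with a median of 0.09, none was called, and the lowest p belonged to AFG3L2, a protease subunit of the inner membrane (112 ± 5.07 CPM against 104 ± 5.99 CPM, log2 fold change 0.10). ATP5IF1, which inhibits the reversed enzyme, was at 137 ± 7.46 CPM against 125 ± 12.8 CPM (0.14), and ATP23, a protease that serves the assembly of the enzyme, at 12 ± 0.673 CPM against 10.5 ± 0.895 CPM (0.19). Of 18 genes for the transport of ATP, ADP and phosphate, 14 were higher with a median of 0.06 and none was called, among them the adenine nucleotide carriers SLC25A5 (673 ± 40.4 CPM against 611 ± 36.6 CPM, 0.14) and SLC25A6 (563 ± 37.5 CPM against 502 ± 31.7 CPM, 0.16). Of these 18, 4 had an unadjusted p under 0.05 in the higher direction, and 2 did so without ATP8 replicate 2, ATP8 replicate 4, control replicate 1 or control replicate 4.

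The nuclear genes of the other respiratory complexes and of mitochondrial translation had a similar tilt. Of 37 complex I subunits 35 were higher, 14 with an unadjusted p under 0.05 and a median of 0.14, and of 24 subunits of complexes II to IV 23 were higher, 11 with an unadjusted p under 0.05 and a median of 0.13, with none called. NDUFB9 was at 70.5 ± 3.45 CPM against 59.8 ± 4.11 CPM (log2 fold change 0.24, edgeR adjusted p = 0.11) and NDUFS6 at 104 ± 10.6 CPM against 81.4 ± 6.23 CPM (0.35, adjusted p = 0.2), both subunits of complex I with groups apart. COX4I1, the complex IV subunit 4, was at 269 ± 15.6 CPM against 234 ± 24.3 CPM (0.20, adjusted p = 0.137). Of 82 mitochondrial ribosomal proteins 75 were higher, 26 with an unadjusted p under 0.05, with a median of 0.10. MRPL24 was the called one, followed by MRPS16 (147 ± 2.88 CPM against 133 ± 4.43 CPM, 0.15, adjusted p = 0.137) and MRPS22 (0.21, adjusted p = 0.179). Without ATP8 replicate 2, 7 of the 37, 4 of the 24 and 12 of the 82 had an unadjusted p under 0.05 in the higher direction, with medians of 0.08, 0.06 and 0.07. Without control replicate 4 the counts were 6, 4 and 16 with medians of 0.11, 0.11 and 0.08, and without ATP8 replicate 4 the count for complexes II to IV was 7. With the gene length trend removed the 3 medians were 0.098, 0.091 and 0.075.

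Of 40 tested factors for the processing, stability and translation of mitochondrial RNA, 28 were higher, 6 with an unadjusted p under 0.05, with a median of 0.07 and none called. The median was 0.04 without ATP8 replicate 2 or control replicate 4, 0.05 without ATP8 replicate 3 and 0.04 in batch 2 alone. They included TFB1M, which methylates the small rRNA (13.7 ± 0.877 CPM against 11.5 ± 0.584 CPM, log2 fold change 0.25, edgeR adjusted p = 0.26), HSD17B10, a subunit of the mitochondrial RNase P (166 ± 9.97 CPM against 146 ± 17.6 CPM, 0.20, adjusted p = 0.146), and TACO1, an activator of COX1 translation (71 ± 1.47 CPM against 63.2 ± 2.88 CPM, 0.17). Of 32 tested proteases, chaperones and import components 28 were higher, 15 with an unadjusted p under 0.05, with a median of 0.10 and none called. The count of 15 was 8 without control replicate 4. TIMM10 had the lowest p, and HTRA2, a protease of the intermembrane space, was at 47.3 ± 1.45 CPM against 40.4 ± 4.26 CPM (0.23). Of 16 mitochondrial antioxidant enzymes 14 were higher with a median of 0.10 and none called, including GLRX5 (115 ± 5.1 CPM against 99.9 ± 9.78 CPM, 0.20). The 6 of them with an unadjusted p under 0.05 in the higher direction became 2 without ATP8 replicate 2 and 3 without control replicate 4. With the gene length trend removed their median was 0.07.

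Among the lists outside mitochondria, 75 of 78 cytosolic ribosomal protein genes were higher, 38 with an unadjusted p under 0.05 and 13 with groups apart, the median being 0.13 with none called. Over all genes tested, 50.6% were higher, 6.21% were higher at an unadjusted p under 0.05, and 1.74% were higher with groups apart. RPL30 was at 228 ± 24 CPM against 179.5 ± 12.3 CPM (log2 fold change 0.34, edgeR adjusted p = 0.159) and RPS16 at 1711 ± 80.6 CPM against 1455 ± 85.1 CPM (0.23, adjusted p = 0.194). Replicate 2 was again the highest (medians of 0.03, 0.25, 0.11 and 0.20 in replicates 1 to 4), and without it 12 of the 78 had an unadjusted p under 0.05 in the higher direction and the median was 0.09. The count was 22 without ATP8 replicate 4, 24 without control replicate 2 and 18 without control replicate 4. With the gene length trend removed the median was 0.11. Many of these genes have processed copies that could share their reads. Of 94 ribosome biogenesis genes 80 were higher with a median of 0.08, 21 with an unadjusted p under 0.05 and none called, among them NHP2, a protein of the snoRNPs that modify rRNA (104 ± 0.722 CPM against 88 ± 5.56 CPM, 0.25, adjusted p = 0.126). In the ER membrane protein complex 9 of 10 subunits were higher with a median of 0.10, EMC4 being called and EMC9 at 48.2 ± 3.71 CPM against 41.1 ± 2.87 CPM (0.23, adjusted p = 0.254).

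Of 43 targets of ATF4 and the integrated stress response, by which cells answer many mitochondrial defects, 33 were higher, 16 with an unadjusted p under 0.05 and none lower at that level. The median was 0.11, and none passed the test across all genes. The count of 16 was 9 without ATP8 replicate 3 or without control replicate 2, with medians of 0.08 and 0.10, and the median was 0.06 in batch 1 alone. GARS, the glycyl-tRNA synthetase, was at 159.6 ± 6.83 CPM against 143 ± 4.79 CPM (log2 fold change 0.16, edgeR adjusted p = 0.138) and AARS, the alanyl-tRNA synthetase, at 139 ± 8.6 CPM against 123 ± 5.97 CPM (0.17). Of 24 genes of glycolysis and lactate 22 were higher, 9 with an unadjusted p under 0.05, with a median of 0.11 and none called. Besides LDHA, the lowest p values were those of PFKP, a phosphofructokinase (351 ± 23.1 CPM against 312 ± 11.2 CPM, 0.17, adjusted p = 0.123), HK2, a hexokinase (70.2 ± 4.54 CPM against 61.2 ± 4.42 CPM, 0.20, adjusted p = 0.126), and PGK1, a phosphoglycerate kinase (574 ± 45.8 CPM against 516 ± 27.9 CPM, 0.15).

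In all, 14 of the 18 lists of nuclear genes had a median above 0 and 4 a median below it. Of the 7 MondoA and ChREBP pathway genes, ARRDC4 and TXNIP fell and the other 5 had values between -0.16 for MLXIPL and 0.05 for MLX. The median of the 7 was -0.03, and it was -0.10 without ATP8 replicate 3, -0.05 without control replicate 2 and -0.02 without ATP8 replicate 4. Of 28 p53 targets 18 were lower with a median of -0.04, which was -0.07 without ATP8 replicate 2 and -0.06 without control replicate 1, including the growth-restraining TP53INP1 (24.7 ± 1.84 CPM against 29.4 ± 1.8 CPM, log2 fold change -0.25, edgeR adjusted p = 0.176), whereas GADD45A was at 71.8 ± 5.22 CPM against 62.7 ± 1.41 CPM (0.19, adjusted p = 0.21). Of 29 tested interferon and RNA-sensing genes 16 were lower with a median of -0.04, which was 0.02 in batch 1 alone, -0.01 in batch 2 alone, -0.02 without any one of ATP8 replicates 1 and 3 and control replicate 4, and -0.03 without control replicate 1. The 3 with an unadjusted p under 0.05, IFI27, IFIT2 and IFI44, were lower, with control means of 4.48, 3 and 0.841 CPM. Of 25 cholesterol synthesis genes 16 were lower with a median of -0.07, with 2 at an unadjusted p under 0.05 in each direction, EBP (0.14) and PMVK (0.24) with positive and INSIG1 (-0.17) and IDI1 (-0.19) with negative values. That median was -0.003 without control replicate 1, where 12 of the 25 were higher, -0.04 without ATP8 replicate 2 or ATP8 replicate 3, and -0.008 in batch 2 alone. Without ATP8 replicate 2, 7 had an unadjusted p under 0.05 in the lower direction, and without control replicate 2, 4 did. None but ARRDC4 and TXNIP was called in these lists.

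**Figure D5:**
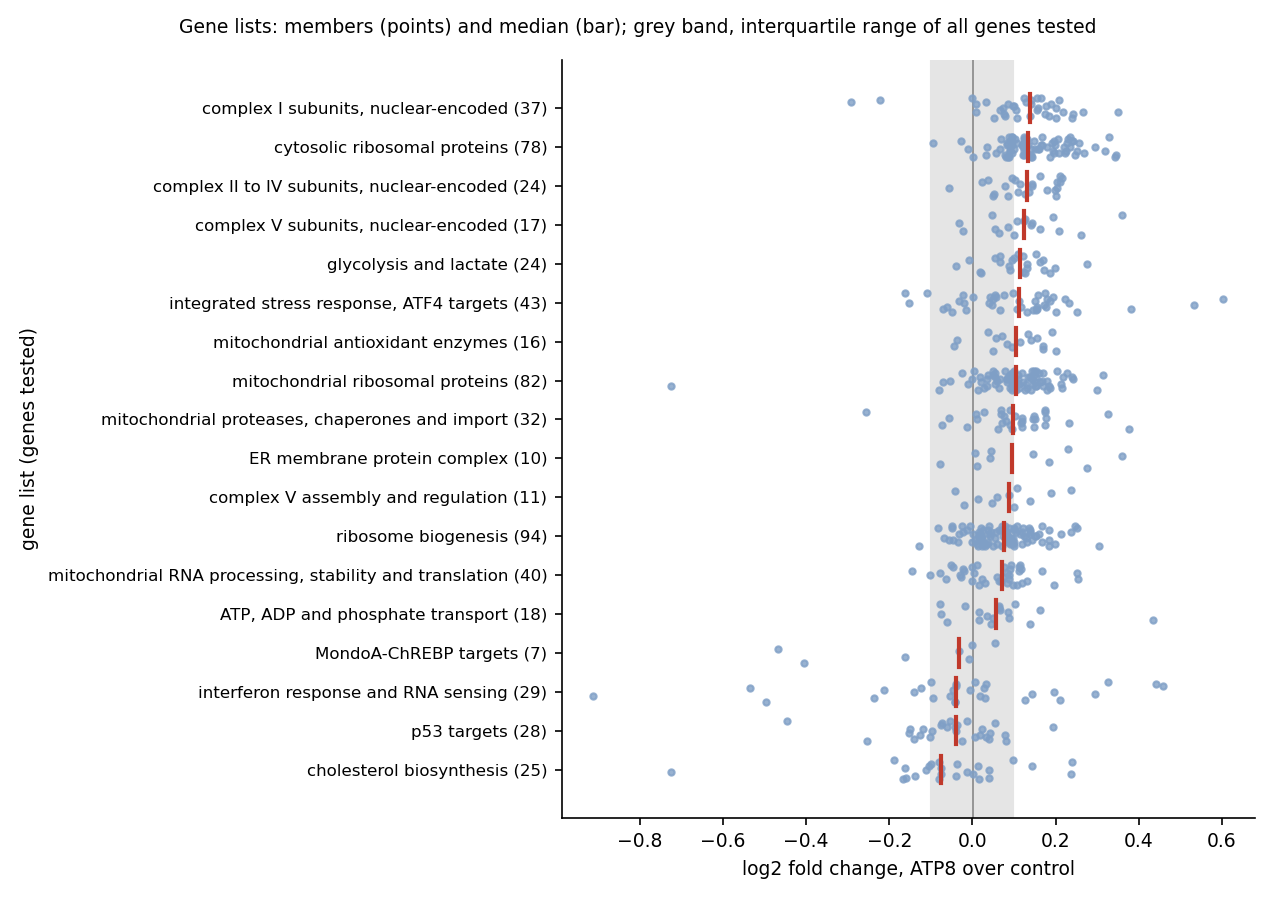
Log2 fold change between ATP8 and control libraries for the members of 18 lists of nuclear genes (points) with the median of each list (red bar) and the number of genes tested. The grey band is the interquartile range of all 20272 genes, from -0.10 to 0.10. The medians run from -0.07 for cholesterol biosynthesis to 0.14 for complex I subunits.

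ATP8 was then compared with ATP6 silencing, which targets the same bicistronic RNA. No gene passed the test (lowest edgeR adjusted p 0.738), and 871 of 20272 genes (4.3%) had an unadjusted p under 0.05. DESeq2 also called 0, and edgeR on the 8 libraries of these groups alone called 3. MT-RNR1 was at 1102 ± 153 CPM with the ATP8 chimera and 937 ± 82.3 CPM with the ATP6 chimera (log2 fold change 0.23, 95% interval 0.11 to 0.36, adjusted p = 0.993), and MT-ATP6 at 2607 ± 267 and 2685 ± 300 CPM (-0.04, 95% interval -0.15 to 0.07). MT-ATP8 was at 114 ± 27.4 and 91.8 ± 19.7 CPM, with overlapping libraries. Against the shared control, ATP6 gave 0.52 for MT-RNR1 (adjusted p = 8.71e-07), 0.23 for MT-RNR2 (0.207), -0.20 for MT-ATP6 (0.207), -0.44 for TXNIP (0.0064) and -0.29 for ARRDC4 (0.111), beside 0.75, 0.31, -0.24, -0.47 and -0.41 for ATP8. The medians of the ATP8 minus ATP6 differences were 0.05 for the complex V subunits and 0.08 for the cytosolic ribosomal proteins, against -0.001 for all genes tested. That 0.08 was the largest of the 18 list medians, and the lowest was -0.04 for the MondoA and ChREBP genes. The median was 0.03 for complex I subunits, 0.02 for glycolysis and lactate, 0.005 for ATF4 targets and 0.002 for ATP, ADP and phosphate transport.

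Set against the mean of the other 10 treatments, ATP8 differed in 3 genes (0.0148% of those tested), all of them mitochondrial. MT-RNR1 was higher (log2 difference 0.58, SE 0.044, adjusted p = 7.03e-14, edgeR), as was MT-RNR2 (0.25, SE 0.046, adjusted p = 0.0124), and MT-ATP6 was lower (-0.25, SE 0.041, adjusted p = 0.00187). The treatments behind the mean varied widely among themselves for these genes, MT-ATP6 from -0.33 with COX3 to 0.20 with COX1 and MT-RNR2 from -0.36 with ND2 to 0.35 with COX2, each against the shared control. The MT-RNR1 difference was 0.66 in batch 1 alone and 0.49 in batch 2 alone. The MT-ATP6 difference was -0.25 in each batch, passed in neither alone, and lost its call without ATP8 replicate 1 (adjusted p = 0.184). MT-RNR2 lost its call without ATP8 replicate 1 (0.357), ATP8 replicate 2 (0.897) or ATP8 replicate 4 (0.136). No nuclear gene passed this test, and next in order of p stood MT-TP (0.36, adjusted p = 0.249). In this comparison the list medians were 0.04 for complex V subunits, complex I subunits and ATF4 targets, and 0.06 for cytosolic ribosomal proteins. Over the 18 lists they ran from -0.02 (interferon genes) to 0.06 (ER membrane protein complex). The median of all genes tested was 0.006.

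The transcripts were also searched for bases complementary to the morpholino. Of the 20263 tested genes with a GENCODE transcript, 521 (2.57%) held a run of at least 10 bases of the 23-base target and 22 (0.109%) a run of at least 12, of which 6 were higher, 16 lower and none called. MT-ATP8 was the single gene with the whole site, and the next longest run was 13 bases, in DCBLD2 (log2 fold change -0.07), ZNF248 (-0.17) and ZHX2 (-0.01), which are named here for their runs after the search. Of the 13 called transcripts, PPP1R3E held a run of 10 bases, and EMC4, ARRDC4 and ZNF75A runs of 8, which 34.2% of the tested genes reach. The median log2 fold change of the genes with a run of at least 12 was -0.09, against 0.002 for all genes. Of the 6923 genes with a run of at least 8, 3081 were higher and 3842 lower. The search took the longest run over all transcripts of a gene and was not adjusted for their length. Whether the runs bear on these values was not tested.

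The difference between ATP8 and control was also compared between the batches. No gene was called in this interaction (lowest edgeR adjusted p 0.564) and 1389 of 20272 had an unadjusted p under 0.05. Batch 1 alone called 4 genes, with MT-RNR1 and MT-RNR2 among the 13, and batch 2 alone called 9, with MT-RNR1 and CD63 among the 13. Without a batch term MT-RNR1 was the single call.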

How the data were processed

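Poly(A)-enriched RNA of HEK293T cells was sequenced in 46 libraries of 12 conditions, and the authors deposited raw counts of reads per gene for 58735 genes. Per the labels' processing notes they used the build GRCh38.p12, R 4.3.0, DESeq2 1.40.2 and limma 3.56.2. The aligner, the counter and the strand setting are not given in the sources used here, so overlapping frames such as those of MT-ATP8 and MT-ATP6, and genes with near-identical copies, are uncertain. The authors also gave the exon length of each gene in bases, which served for ratios per kilobase and in 1 alternative. Groups and replicates come from the sample labels, and the batches from the study's methods.

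For the tests here, edgeR 4.0.16 under R 4.3.3 was fitted to all 46 libraries with condition and batch as factors, TMM normalization and the quasi-likelihood F test. The filter filterByExpr (minimum count 10) left 20272 genes, over which Benjamini-Hochberg adjusted p under 0.05 defined a call. CPM are normalized by TMM, ± is the SD over libraries, and intervals are at 95%. Ratios were tested by two-sided exact permutation of the 8 libraries without regard to batch. Percentages of the batch control use the mean of both control libraries of the batch.

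Named genes were the mtDNA mRNAs and rRNAs with the tRNA next to MT-ATP8, the genes called in any comparison, the complex V subunits, the lowest-p members of each list, and the next protein-coding genes by p at a mean of at least 1 CPM, to 30. The comparison, gene lists and rule were chosen with earlier results of these data known. The procedure was tested on simulated data. Pairs of replicates differed by 3.28 to 20.2 times the sampling noise (chi-square per degree of freedom, 12 pairs), so none was a repeat. The labels name separate replicates, and the study describes them as biological.

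ATP8 and control libraries of the same replicate number deviated together from their group means (r = 0.367, 0.599, 0.468 and 0.596 for numbers 1 to 4 over 10430 genes at 10 CPM or more, 0.173 and 0.225 within batch 1 and batch 2), so the number was also tried as a block. ATP8 replicate 1 matched control replicate 2 best, and every other ATP8 replicate matched the control of its own number best.

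The alternatives were RLE size factors, no filter, a stricter filter (mean of at least 1 CPM), DESeq2 1.42.0 with the batch and on counts corrected with limma 3.58.1, no batch term, the replicate block, the compared libraries alone, each batch alone, library sizes from nuclear genes, removal of a gene length trend, and leaving out each replicate. Removal of a GC content trend, the histone and RN7SL2 values and the counts of each list without a library were added after the data were seen.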

Additional observations from a re-analysis of the deposited data

Results flagged for a closer look

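In 3 transcripts the effect of ATP8 silencing differed from the mean of the other 10 treatments by edgeR's test: MT-RNR1 (log2 difference 0.58), MT-RNR2 (0.25) and MT-ATP6 (-0.25). Single treatments came close to ATP8 or passed it. Against control, MT-RNR2 was 0.30 with COX1, 0.35 with COX2 and 0.30 with COX3, but -0.36 with ND2. MT-ATP6 was -0.33 with COX3 and -0.20 with ATP6, but 0.20 with COX1.

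A single library stood far from the 3 others of its group in 6 of 276 groups of 4 examined (2.17%). For 4 draws from a single normal population the rule would flag about 1 in 20. That rate does not apply directly here, because each group mixed both batches and many of the genes were picked by their p. CLK4 was at 22.3 CPM in ATP8 replicate 2 against 19.3 to 19.5 CPM in the other ATP8 libraries. MRTO4, a ribosome biogenesis factor, was at 133 CPM in ATP8 replicate 4 against 148 to 151 CPM, and TFB1M at 15 CPM in ATP8 replicate 4 against 13.2 to 13.4 CPM. In control replicate 4, ATP5MPL was at 86.6 CPM against 96.6 to 97.7 CPM and HK2 at 54.6 CPM against 62.5 to 64 CPM. The median log2 ratio of the HEK293T marker genes to the batch control was -0.044 in ATP8 replicate 2 and 0.09 to 0.11 in the others.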

How the results depend on the processing

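The number of transcripts altered between ATP8 and control was 13. It was 250 without a filter, 74 with DESeq2 and 90 with DESeq2 on batch-corrected counts, 1 without a batch term, 36 with the replicate block, 51 with the compared libraries alone, 4 in batch 1 alone and 41 with a GC content trend removed, and it ranged from 4 to 16 when single libraries were left out. Calls split into 22 higher and 19 lower with the GC content trend removed and 7 and 6 with the gene length trend removed, against 9 and 4. Against ATP6 the count of 0 became 21 without a filter and 3 with the compared libraries alone, and was 0 whichever ATP8 or ATP6 library was left out. Against the other 10 treatments the count of 3 became 35 without a filter, 1 without a batch term and 1 in batch 2 alone, and 1 to 4 without single libraries. MT-ATP8 against control was -0.012 without ATP8 replicate 4 and at most 0.21 without other single libraries, and was not called. MT-ATP6 against control was called at -0.24 without a filter, with DESeq2, with DESeq2 on corrected counts, with the replicate block, with the compared libraries alone and with the GC content trend removed, and at -0.31 with the gene length trend removed, and it ranged from -0.27 to -0.21 without single libraries. Of the other named calls the replicate block changed none. The cause of these differences was not tested. No other list median of those tried than that of the interferon genes and of the HEK293T markers changed sign, both in batch 1 alone. Of the 19 mtDNA tRNAs tested, 8 averaged under 1 CPM, and MT-ATP8 varied between libraries by an SD of 27.4 CPM in ATP8 and 21.3 CPM in control.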
